A study of Mus musculus with 6 samples.

Results

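The fibrillar collagens I, III and V are described here by their 6 genes, Col1a1, Col1a2, Col3a1, Col5a1, Col5a2 and Col5a3. They were chosen by name, with earlier results of these data known. Each was found under 1 Ensembl identifier among the 57010 genes of the count table. All 6 were among the 16093 genes with enough counts to be tested. RNA was sequenced from mouse fibroblasts of the ear kept for 3 days, 500000 cells per sample, on glass, on a soft polyacrylamide hydrogel of 1 kPa or on a stiffer one of 20 kPa, with 2 libraries per substrate. The 3 groups shared cell source and culture time, and the labels give no strain, age, sex or passage and name no factor added to the cells. Whether libraries within 1 group are separate animals or separate cultures is not stated in the labels, and each p-value therefore rests on a spread between samples that may be technical. The series is about matrix stiffness in cell reprogramming, and both comparisons against glass use the same glass libraries. Stiffness in kPa is given for the gels only, and glass also differs from them in material. The order glass, 1 kPa, 20 kPa is used below for values and is not a scale of stiffness.

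Fibrillar collagens are the rope-like proteins that give skin, tendon and cartilage their tensile strength. Each chain has a long stretch in which glycine recurs at the same place of each residue triplet, which lets chains wind into a triple helix, and helices then pack side by side into fibrils. Type I, the main collagen of skin, is mostly built of Col1a1 and Col1a2 chains, with more of the former. Type III is built of Col3a1 chains alone and is found with type I in skin and vessel walls and early in wound repair. Type V is a minor component that starts type I fibrils and limits their width. Its common form combines Col5a1 and Col5a2 chains, and Col5a3 enters a rarer form.

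Library totals ran from 17669006 to 21350111 counts, so that the floor of 3 counts was at 0.141 to 0.17 CPM (counts scaled to a common library size, here always with TMM factors). All 9 fibroblast markers were tested, and their summed level was 9517 to 10001 CPM on glass, 11844 to 12376 CPM on 1 kPa and 11996 to 12430 CPM on 20 kPa. The members of that sum moved both ways, with 6 higher and 3 lower on 1 kPa and 5 higher and 2 lower on 20 kPa, against glass. Dcn and Lum rose most (values below), and the net rise of the sum came from them. Vim, an intermediate filament protein, fell on both gels, at 4192 ± 140, 2191 ± 84 and 2722 ± 57 CPM on glass, 1 kPa and 20 kPa. S100a4 also fell on both gels, and Fbln2 on 1 kPa. The 12 markers of chondrocytes, the cells of ear cartilage, summed to 551 to 580, 695 to 718 and 1298 to 1347 CPM on glass, 1 kPa and 20 kPa, with 11 tested and none at 0 counts in all libraries. Of the 11, 7 rose and 2 fell on 1 kPa, and 10 rose and 1 fell on 20 kPa. Sox9, the largest part of that sum on glass, fell on both gels (285 ± 0.79, 164 ± 1.2 and 251 ± 0.43 CPM). Cnmd fell on 1 kPa and rose on 20 kPa (29.7 ± 1.1, 20.0 ± 1.6 and 50.4 ± 2.0 CPM). The 7 markers of osteoblasts, bone cells that also make type I collagen, were higher in sum on the gels, at 72.6 to 76.8, 92.8 to 93.5 and 95 to 101 CPM. Of the 4 tested, 3 rose and 1 fell on each gel, with Sp7 at 2.94 ± 0.3, 19.4 ± 0.48 and 19.6 ± 2.4 CPM, Alpl at 5.96 ± 0.59, 24.9 ± 0.21 and 20.1 ± 0.5 CPM, and Runx2, which fell, at 65.7 ± 3.5, 48.3 ± 0.1 and 57.5 ± 6.0 CPM. Dmp1, the other that rose, had at most 11 counts in any library, at 0, 0.154 ± 0.059 and 0.51 ± 0.032 CPM. The late markers Ibsp, Bglap and Bglap2 had at most 7 counts in any library. The 8 smooth muscle and pericyte markers summed to 322 to 362, 222 to 231 and 255 to 268 CPM, a sum made up mostly of Cspg4 (299 ± 28, 187 ± 4.8 and 231 ± 8.2 CPM). By count 4 of them rose and 2 fell on 1 kPa, and 3 rose and 3 fell on 20 kPa. Rgs5, Kcnj8 and Abcc9, which rose on both gels, had at most 15, 24 and 29 counts in any library. Cspg4 and Myh11 (10.9 ± 0.0044, 1.78 ± 0.65 and 0.826 ± 0.065 CPM) fell on both. The 7 endothelial markers summed to 15.3 to 16, 30.6 to 33.6 and 27.4 to 27.8 CPM, with 4 higher on 1 kPa, 5 higher on 20 kPa and none lower. The 8 keratinocyte markers summed to 18.6 to 23.7, 26.5 to 28.4 and 27 to 27.8 CPM, with 1 higher and 3 lower of 5 tested on each gel, and the 8 leukocyte markers to at most 15.2 CPM in any library. The keratinocyte marker that rose was Trp63 (11.1 ± 1.8, 23.3 ± 1.7 and 22.5 ± 0.21 CPM), the largest part of that sum, while Krt5, Krt14 and Dsp fell. The single markers given here were chosen after their values were seen. The marker counts use an edgeR adjusted p under 0.05 against glass. They stand beside 45.0% of all tested genes called on 1 kPa and 41.8% on 20 kPa. Those called higher were 23.0% and 22.3% of all tested genes. An identifier without a symbol held 5.1% of all counts in glass replicate 2, and between 0.947% and 2.9% elsewhere. The part of these other cells or of this identifier in the results below was not tested, and in bulk RNA a change in the share of a cell type and in RNA per cell cannot be told apart.

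The 6 transcripts share the glycine repeat described above, which the choice of fibrillar collagens fixed in advance. In the longest coding transcript of each gene (GENCODE M21), a glycine codon stood in each codon triplet of 1 uninterrupted run, of 337 triplets in Col5a3 to 344 in Col3a1. That run was 74.1% of the codons of Col1a2, the shortest coding sequence with 1372 codons, and 55.2% of those of Col5a1, the longest with 1838. The messages differed at their start codons. Type I and type III collagen messages are known to fold into a short stem-loop there, which is bound by the protein Larp6. The 30 bases from 25 before the start codon to 5 from its first base on are shown for all 6, since they split the genes into 2 sets, with the arms of an inverted repeat, CATGTCT and its reverse complement AGACATG, in capitals where both are present, the second of them holding the start codon.
Col1a1: gagtctaCATGTCTagggtctAGACATGtt
Col1a2: gagtctgCATGTCTaagtggtAGACATGct
Col3a1: agagtctCATGTCTgatatttAGACATGat
Col5a1: tccccggcccgcgcaccccgccggcatgga
Col5a2: ggacccaCATGTCTcatatttAGACATGat
Col5a3: ccttggtgcaccaggccccgctgggatgag
Both arms, 7 bases each and 7 bases apart, stood in Col1a1, Col1a2, Col3a1 and Col5a2, and not in Col5a1 or Col5a3. Among the 19817 protein-coding genes with such a window, 4 held both arms in this place (0.0202%), and these were the same 4 collagen genes. The arms were picked after these sequences were seen, so this is a description. The Col3a1 and Col5a2 windows were identical at 25 of 30 bases and those of Col1a1 and Col1a2 at 24, while Col5a1 and Col5a3 shared 15.

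On GRCm38, the windows lie at chr11:94936344-94936373 (plus strand) for Col1a1, chr6:4505815-4505844 (plus) for Col1a2, chr1:45311723-45311752 (plus) for Col3a1, chr2:27886791-27886820 (plus) for Col5a1, chr1:45502910-45502939 (minus) for Col5a2 and chr9:20814949-20814978 (minus) for Col5a3. Each spans the end of the 5′ UTR and the first codons. Col3a1 (ENSMUSG00000026043.19) and Col5a2 (ENSMUSG00000026042.17) are neighbours on chromosome 1, where their facing ends are 24614 bases apart. Of the exonic length of Col5a1 2.5% overlaps other genes, of Col3a1 1.44%, and of the other 4 members none does.

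Expression of the type I genes was modestly higher on both gels than on glass. Col1a1 stood at 6564 and 6021 CPM on glass, 8058 and 7811 CPM on 1 kPa, and 8145 and 8066 CPM on 20 kPa. Both glass libraries lay below all 4 gel libraries. Against glass the log2 fold change was 0.33 (SE 0.07, edgeR adjusted p = 0.00015) on 1 kPa and 0.37 (SE 0.07, edgeR adjusted p = 5.4e-05) on 20 kPa, or 1.26-fold and 1.29-fold. Between the gels it was 0.03 (SE 0.07, edgeR adjusted p = 0.81). Col1a2, the partner chain, stood at 5092 and 4707 CPM on glass, 5883 and 5686 CPM on 1 kPa, and 6608 and 6283 CPM on 20 kPa. The groups did not overlap, and from lowest to highest level they were glass, 1 kPa, 20 kPa. Col1a2 rose by 0.24 (SE 0.07, edgeR adjusted p = 0.0042) on 1 kPa and by 0.40 (SE 0.07, edgeR adjusted p = 1.6e-05) on 20 kPa on the log2 scale, against glass. The 1 kPa call was lost without 1 kPa replicate 1 (edgeR adjusted p = 0.074, range over 14 alternatives 1.0e-07 to 0.074). Between the gels Col1a2 differed by 0.16 (SE 0.07, edgeR adjusted p = 0.11), which passed the threshold in 5 of 14 alternatives (0.0013 to 0.49).

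**Figure D1:**
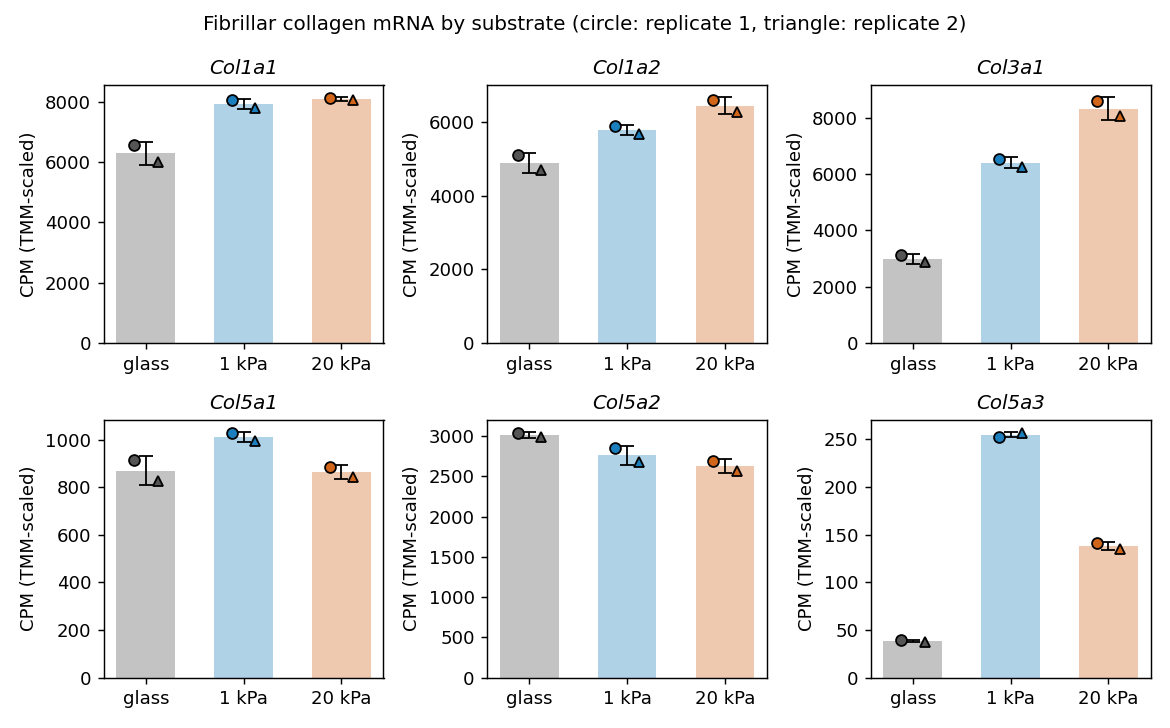
Expression of the 6 genes in CPM (vertical axes, each from 0) on glass, 1 kPa and 20 kPa, with bars for the mean, error bars for the SD of 2 libraries, and a circle and a triangle for replicates 1 and 2. Col3a1 and Col5a3 show the widest separation between glass and both gels, with Col3a1 highest on 20 kPa and Col5a3 highest on 1 kPa.

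Col3a1, the single chain of type III collagen, rose on both gels and further on the stiffer one. It stood at 3118 and 2874 CPM on glass, 6547 and 6276 CPM on 1 kPa, and 8625 and 8057 CPM on 20 kPa. No library of one substrate overlapped those of another. Against glass, the level was 2.14-fold on 1 kPa (log2 fold change 1.10, SE 0.07, edgeR adjusted p = 3.9e-14) and 2.78-fold on 20 kPa (1.48, SE 0.07, edgeR adjusted p = 4.9e-17). From 1 kPa to 20 kPa it rose 1.3-fold (0.38, SE 0.07, edgeR adjusted p = 0.00011). All 3 calls held in each of the 14 alternatives, with log2 fold changes of 1.04 to 1.16, 1.42 to 1.54 and 0.33 to 0.43. Over all tested genes, 1579 had a larger log2 fold change than Col3a1 on 1 kPa and 944 on 20 kPa, against glass.

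The 3 type V genes moved apart. Col5a3 was the least abundant member and rose most. It stood at 39.3 and 37.4 CPM on glass, 253 and 257 CPM on 1 kPa, and 141 and 135 CPM on 20 kPa. The groups lay far apart, with 20 kPa between glass and 1 kPa. Its level was 6.64-fold that of glass on 1 kPa (log2 fold change 2.73, SE 0.06, edgeR adjusted p = 1.3e-24) and 3.61-fold on 20 kPa (1.85, SE 0.06, edgeR adjusted p = 3.1e-20). It fell by 0.88 (SE 0.06, edgeR adjusted p = 4.8e-13) on the log2 scale from 1 kPa to 20 kPa. The 3 calls held in each of the 14 alternatives.

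Col5a1, the chain found in most type V molecules, differed little. It stood at 913 and 828 CPM on glass, 1026 and 995 CPM on 1 kPa, and 886 and 845 CPM on 20 kPa. The 1 kPa libraries were above all others, and those of 20 kPa lay within the range of glass. Col5a1 rose by 0.22 (SE 0.06, edgeR adjusted p = 0.0039) on 1 kPa against glass and fell by 0.22 (SE 0.06, edgeR adjusted p = 0.0074) from 1 kPa to 20 kPa. The first call was lost without 1 kPa replicate 1 (edgeR adjusted p = 0.074, range 2.8e-05 to 0.074). The second passed in 9 of 14 alternatives (0.00011 to 0.15) and was lost with total counts in place of TMM (0.07), with total counts without the 6 genes (0.082), and without 1 kPa replicate 1 (0.13), 1 kPa replicate 2 (0.07) or 20 kPa replicate 2 (0.15). On 20 kPa against glass its log2 fold change was -0.01 (SE 0.06, edgeR adjusted p = 0.93), with either sign among the alternatives (-0.08 to 0.07).

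Col5a2, the other chain of common type V collagen, was the only member with its highest level on glass. It stood at 3040 and 2991 CPM on glass, 2845 and 2680 CPM on 1 kPa, and 2694 and 2566 CPM on 20 kPa. Both gels were below glass, and their libraries overlapped each other. Col5a2 fell by 0.20 (SE 0.06, edgeR adjusted p = 0.012) on 20 kPa on the log2 scale, a call that 11 of 14 alternatives gave (0.00018 to 0.15) and that was lost with total counts in place of TMM (0.088), total counts without the 6 genes (0.12) or without 20 kPa replicate 2 (0.15). On 1 kPa its log2 fold change was -0.13 (SE 0.06, edgeR adjusted p = 0.1), which passed in 4 of 14 alternatives (0.02 to 0.53), DESeq2 (0.048) and limma-voom (0.025) among them. From 1 kPa to 20 kPa it was -0.07 (SE 0.06, edgeR adjusted p = 0.48).

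**Figure D2:**
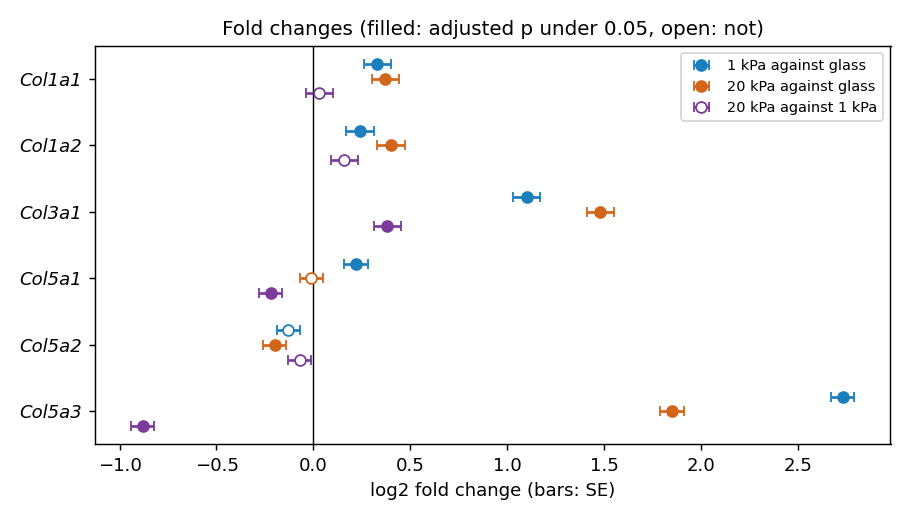
Log2 fold changes of the 6 genes (horizontal axis) with their SE as bars, for the 3 comparisons in colour, filled where the edgeR adjusted p was under 0.05. Col5a3 and Col3a1 lie farthest to the right against glass at 2.73 and 1.48, Col5a3 falls to the left between the gels at -0.88, and Col5a2 is on the left of 0 in all 3 comparisons.

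In counts, 5 of the 6 genes rose on 1 kPa against glass and none fell. Of all tested genes 45.0% were called, and 23.0% were called higher. On 20 kPa against glass 4 rose and 1 fell, where 41.8% of all tested genes were called, 22.3% higher and 19.6% lower. Between the gels 1 was higher and 2 were lower on 20 kPa, where 18.9% of all tested genes were called, 8.94% higher and 9.92% lower. The median log2 fold change of the 6 was 0.29, 0.38 and -0.02 in these comparisons, and that of all tested genes 0.00, 0.02 and 0.00. Libraries of the compared substrates lay fully apart for 6 members in the first comparison, against 71.0% of all tested genes, for 5 in the second, against 67.5%, and for 5 in the third, against 60.1%. A difference over the 3 substrates was called for all 6, against 51.2% of tested genes. For Col5a2 this call (edgeR adjusted p = 0.027) held in 6 of 13 alternatives (0.00045 to 0.19), being lost with total counts (0.14), total counts without the 6 genes (0.19), the stricter filter (0.064), or without 1 kPa replicate 1 (0.057), 1 kPa replicate 2 (0.089), 20 kPa replicate 1 (0.063) or 20 kPa replicate 2 (0.16). For Col5a1 it was lost without 1 kPa replicate 1 (0.097, range 7.9e-06 to 0.097).

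Together the 6 genes held 1.9% and 1.7% of each glass library's counts. On 1 kPa they held 2.4% and 2.36%, and on 20 kPa 2.75% and 2.65%. The share was higher in every gel library than in both glass libraries. The 95% Wilson interval, which covers counting error only, was for example 2.39% to 2.41% in 1 kPa replicate 1. By mean CPM over the 6 libraries, Col1a1 ranked 4 among all tested genes, Col3a1 7, Col1a2 8, Col5a2 18, Col5a1 96 and Col5a3 1334.

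Levels of different chains can be compared only per length, and the length chosen mattered. The merged exons of Col1a2 (12.43 kb), Col3a1 (9.82 kb) and Col5a2 (9.59 kb) are longer than their longest transcripts (5.35, 5.56 and 6.62 kb), while those of Col5a1 are 8.49 and 8.41 kb, those of Col1a1 6.56 and 5.93 kb and those of Col5a3 6.81 and 6.12 kb. The transcripts behind the counted reads are not known, and both lengths are therefore shown. In CPM per kb of the longest transcript, the order on glass was Col1a1 at 1061 ± 65, Col1a2 at 916 ± 51, Col3a1 at 539 ± 31, Col5a2 at 455 ± 5.3, Col5a1 at 104 ± 7.2 and Col5a3 at 6.26 ± 0.22 (mean ± SD, n = 2), with no overlap of neighbours. On 1 kPa Col3a1, at 1152 ± 34, lay between Col1a1 at 1338 ± 29 and Col1a2 at 1082 ± 26. On 20 kPa Col3a1, at 1499 ± 72, was above Col1a1 at 1367 ± 9.4 and Col1a2 at 1205 ± 43. Col5a2, Col5a1 and Col5a3 kept the last 3 places on both gels. In CPM per kb of merged exons, Col1a1 was first on every substrate (959 ± 59, 1209 ± 27 and 1235 ± 8.5). On that scale Col3a1 on glass, at 305 ± 18, overlapped Col5a2 at 314 ± 3.7 and lay below Col1a2 at 394 ± 22, and on 20 kPa Col3a1, at 850 ± 41, was above Col1a2 at 519 ± 18.

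Ratios of chains within a library do not depend on how libraries are scaled, and their change between substrates does not depend on the length used. The values below are ratios of raw counts. Over the 3 substrates, each ratio was tested by an exact permutation of its F statistic over all 90 assignments, with adjustment over the 5 ratios. The smallest p this design allows is 0.0667, so no ratio could pass 0.05.

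Relative to Col1a1, Col3a1 stood apart between all 3 substrates. Their ratio was 0.475 and 0.477 on glass, then 0.812 and 0.804 on 1 kPa, then 1.06 and 0.999 on 20 kPa. The substrates did not overlap, and the counting intervals of single libraries were narrow beside these gaps (0.471 to 0.479 in glass replicate 1). The mean ratio was 1.7-fold higher on 1 kPa and 2.16-fold higher on 20 kPa than on glass (exact permutation p = 0.0667, adjusted 0.0833). Per kb of the longest transcript the means were 0.508, 0.861 and 1.1, and per kb of merged exons 0.318, 0.54 and 0.688.

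The ratio of the type I chains varied within a narrower range. Col1a1 to Col1a2 was 1.29 and 1.28 on glass, then 1.37 and 1.37 on 1 kPa, then 1.23 and 1.28 on 20 kPa. The 1 kPa libraries were above the other 4, and glass and 20 kPa overlapped. The mean was 1.07-fold that of glass on 1 kPa and 0.98-fold on 20 kPa (exact permutation p = 0.133, adjusted 0.133). Per kb of the longest transcript the means were 1.16, 1.24 and 1.13, and per kb of merged exons 2.43, 2.6 and 2.38, so that the level of this ratio, unlike its change, rests on the length.

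Within type V, both ratios were highest on 1 kPa. Col5a3 to Col5a1 was 0.0431 and 0.0451 on glass, then 0.246 and 0.258 on 1 kPa, then 0.16 and 0.16 on 20 kPa. The groups were far apart, and the means were 5.72-fold and 3.63-fold that of glass on 1 kPa and 20 kPa (exact permutation p = 0.0667, adjusted 0.0833). Col5a1 to Col5a2 was 0.3 and 0.277 on glass, then 0.361 and 0.371 on 1 kPa, then 0.329 and 0.329 on 20 kPa. Its groups did not overlap either, with means 1.27-fold and 1.14-fold that of glass (exact permutation p = 0.0667, adjusted 0.0833). Per kb of the longest transcript, Col5a3 made up 1.12% and 1.1% of the type V messages on glass, then 6.97% and 7.44% on 1 kPa, then 4.32% and 4.34% on 20 kPa. Col5a2 remained the most abundant of the 3 in every library, at 71.6% to 81.2%.

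For type V against type I, the ratio of Col5a1 to Col1a1 was 0.139 and 0.137 on glass, then 0.127 and 0.127 on 1 kPa, then 0.109 and 0.105 on 20 kPa. The groups did not overlap, and from highest to lowest ratio they were glass, 1 kPa, 20 kPa. The means on 1 kPa and 20 kPa were 0.921-fold and 0.772-fold that of glass (exact permutation p = 0.0667, adjusted 0.0833).

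**Figure D3:**
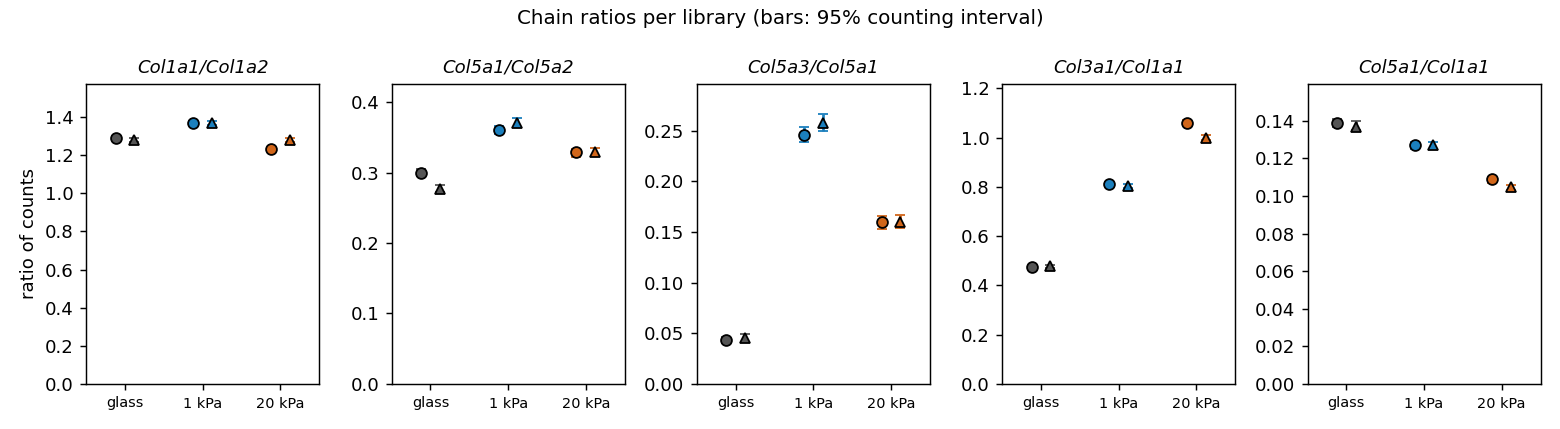
Ratios of raw counts of 5 pairs of chains (vertical axes, each from 0) in each library on glass, 1 kPa and 20 kPa, with 95% exact binomial counting intervals as bars, circles for replicate 1 and triangles for replicate 2. Col3a1 to Col1a1 is lowest on glass at 0.475 and 0.477 and highest on 20 kPa at 1.06 and 0.999. Col5a3 to Col5a1 peaks on 1 kPa at 0.246 and 0.258, and Col1a1 to Col1a2 stays between 1.23 and 1.37.

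The makeup of the 6 messages is a description of the same values. A type here is the sum of its chain messages, mostly Col5a2 for type V, and not an amount of collagen molecules. Per kb of the longest transcript, type III was 17.6% and 17.4% of their sum on glass, then 27.8% and 27.7% on 1 kPa, then 33.0% and 32.2% on 20 kPa. Type I was 64.5% and 63.9%, then 58.2% and 58.4%, then 55.6% and 56.4%. Type V was 18% and 18.7%, then 14.0% and 13.9%, then 11.4% and 11.3%. The substrates did not overlap for any type. Per kb of merged exons, type III was 14.7% and 14.6%, then 23.6% and 23.5%, then 28.7% and 27.9%. The other types kept the same order of substrates on that scale. As shares of 1 sum, a rise of type III lowers the others even where their CPM did not fall.

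**Figure D4:**
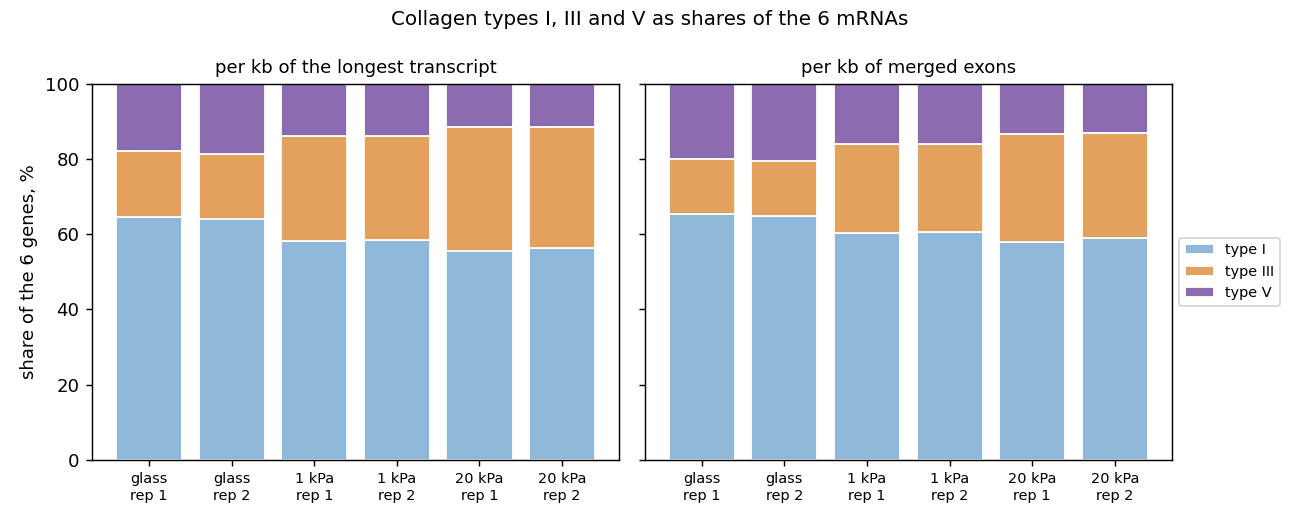
Shares in percent of collagen types I, III and V in the summed level of the 6 genes in each library, per kb of the longest transcript (left) and per kb of merged exons (right). On the left, type III widens from 17.6% and 17.4% on glass to 33.0% and 32.2% on 20 kPa. On the right, it widens from 14.7% and 14.6% to 28.7% and 27.9%.

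Upstream of the start sites, 4 of the 6 genes had an entry in the RefSeq promoter table (GRCm38.p6). The 250 bases before the start are shown for Col3a1 and Col5a3, the 2 members that changed most, with 3 motifs in capitals where found on either strand, the TATA box TATAAA, the Sp1-type GC box GGGCGG, and the box named for its letters CCAAT. The first lies at chr1:45311288-45311537 (plus strand) and the second at chr9:20815068-20815317 (minus strand).
Col3a1: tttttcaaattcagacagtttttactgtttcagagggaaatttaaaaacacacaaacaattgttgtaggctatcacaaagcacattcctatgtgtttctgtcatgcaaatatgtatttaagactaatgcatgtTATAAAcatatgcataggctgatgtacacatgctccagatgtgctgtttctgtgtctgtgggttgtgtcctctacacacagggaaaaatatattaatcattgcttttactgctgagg
Col5a3: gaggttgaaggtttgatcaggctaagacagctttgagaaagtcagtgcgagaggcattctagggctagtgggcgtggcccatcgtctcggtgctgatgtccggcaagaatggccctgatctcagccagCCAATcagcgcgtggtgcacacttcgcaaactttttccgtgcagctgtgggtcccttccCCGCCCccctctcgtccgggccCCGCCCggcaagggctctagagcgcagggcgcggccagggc
The Col3a1 stretch was 35.2% G and C and held 1 TATAAA, which begins 117 bases before the start, and neither of the other motifs. The Col5a3 stretch was 62.8% G and C and held 1 CCAAT 122 bases before the start and 2 GGGCGG on the opposite strand, 63 and 41 bases before it. The Col1a2 stretch held 1 CCAAT and 2 GGGCGG, and that of Col5a1 2 GGGCGG. Of all 32851 promoters in the table, 33.8% held CCAAT, 32.7% GGGCGG and 12.4% TATAAA. These are matches of letters and show no binding.

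Each member was then set beside other genes by pattern, as the root mean square distance of log2 CPM, centred on each gene's mean, over the 6 libraries and 10577 candidate genes. These distances rest on 3 substrates and are a description. How many candidates lie about as near was not counted. The neighbours given with a function or values were picked after they were seen, and shared regulation was not tested. Nearest to Col1a1 were Scarf2, Usf1 and Crtap, each at 0.02. Crtap is part of the complex that hydroxylates prolines of procollagen, and stood at 162 ± 8.1, 204 ± 0.85 and 206 ± 2.1 CPM on glass, 1 kPa and 20 kPa. Nearest to Col1a2 were P4ha3 and Irf2bp1 at 0.02 and Id2 at 0.03. P4ha3 is a prolyl hydroxylase subunit, at 49.3 ± 2.7, 58.3 ± 1.8 and 65.6 ± 0.017 CPM. Nearest to Col3a1 were Pcdhb19 (0.05), Sfrp1 and Kif26b (both 0.07). Sfrp1, a secreted Wnt antagonist, stood at 125 ± 1.6, 287 ± 4.7 and 346 ± 2.7 CPM. Nearest to Col5a3 were Ch25h (0.05), Apln (0.06) and Il11 (0.07). Apln, a secreted peptide ligand, stood at 23.6 ± 0.23, 171 ± 0.035 and 87.8 ± 0.6 CPM, and the cytokine Il11 at 6.9 ± 0.32, 48.5 ± 2.7 and 27.9 ± 0.3 CPM. Nearest to Col5a1 were Bcl9l, Ubqln4 and Setd1b, and to Col5a2 Aldh3b1, Cers5 and Ppp2r2a, all at 0.02. Among the members themselves, Col1a1 and Col1a2 were the closest at 0.06, Col5a1 and Col5a2 were at 0.15, and the member nearest to Col5a3 was Col3a1 at 0.70.

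The counts in the lists that follow stand beside 45.0% of all tested genes called on 1 kPa and 41.8% on 20 kPa, against glass. The lists were chosen with earlier results of these data known, so their counts are a description. The remaining fibrillar collagens, which are characteristic of cartilage or are minor fibril components, were mostly higher on the gels. Of 5, 4 rose and 1 fell on 1 kPa (median log2 fold change 1.84) and 5 rose on 20 kPa (2.49). Of the 11 tested chondrocyte markers, a list that also holds Col2a1, 7 rose and 2 fell on 1 kPa and 10 rose and 1 fell on 20 kPa, and their part in these values was not tested. Col2a1, the main cartilage collagen, stood at 143 ± 14, 274 ± 9.3 and 518 ± 18 CPM on glass, 1 kPa and 20 kPa, and the minor chain Col11a2 at 12.4 ± 0.79, 108 ± 8.3 and 141 ± 4.5 CPM. Col24a1 was highest on 1 kPa, at 2.3 ± 0.11, 40.2 ± 3.9 and 19.1 ± 1.8 CPM, and Col27a1 on 20 kPa, at 43.0 ± 0.99, 155 ± 7.7 and 242 ± 12 CPM. Col11a1, chosen here after its values were seen as the single gene that fell, stood at 355 ± 15, 240 ± 6.4 and 518 ± 12 CPM.

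Genes that build procollagen moved less uniformly. Of 23 genes of procollagen modification, folding and export, 12 rose and 4 fell on 1 kPa (median 0.16), and 12 rose and 6 fell on 20 kPa (median 0.15, 12 and 3 with total counts in place of TMM). From 1 kPa to 20 kPa 3 were higher and 8 lower, or 4 and 6 with total counts and 1 and 8 with DESeq2. Of all tested genes 18.9% were called between the gels, 8.94% higher and 9.92% lower on 20 kPa. The proline hydroxylase subunit P4ha2 stood at 129 ± 6.9, 291 ± 6.8 and 155 ± 3.5 CPM on glass, 1 kPa and 20 kPa. The lysine hydroxylases Plod1 (158 ± 7.9, 344 ± 3.4 and 243 ± 6.7 CPM) and Plod2 (68.3 ± 1.6, 144 ± 2.0 and 115 ± 7.1 CPM) and the ion channel Tmem38b (15 ± 2.5, 46.8 ± 0.27 and 25.4 ± 0.77 CPM) were likewise highest on 1 kPa, and each differed between the gels. Serpinh1, the collagen chaperone, chosen after its values were seen, was at 1896 ± 4.8, 1897 ± 28 and 1810 ± 6.3 CPM and did not pass in any comparison (edgeR adjusted p = 0.99, 0.39 and 0.47).

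Of 12 tested genes of procollagen trimming and crosslinking, 4 rose and 5 fell on 1 kPa, and 5 rose and 5 fell on 20 kPa (medians 0.03 and -0.02, the latter 0.01 with total counts). Bmp1, which removes the C-terminal propeptide, stood at 284 ± 21, 640 ± 28 and 573 ± 10 CPM. The crosslinking enzymes went both ways, with Loxl2 at 65.5 ± 0.31, 169 ± 6.5 and 109 ± 0.89 CPM and Loxl4 at 272 ± 6.2, 106 ± 5.2 and 127 ± 16 CPM. Pcolce2, an enhancer of propeptide removal, stood at 86.2 ± 0.2, 46.9 ± 0.32 and 64.9 ± 0.77 CPM.

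Proteins that bind collagen fibrils were nearly all higher on both gels. Of 12, 11 rose and none fell on 1 kPa (median 0.95) and on 20 kPa (median 1.01). Dcn and Lum, small proteoglycans on the fibril surface, stood at 157 ± 19, 3542 ± 320 and 2913 ± 66 CPM and at 45.8 ± 7.5, 938 ± 62 and 884 ± 36 CPM on glass, 1 kPa and 20 kPa. Both are also among the fibroblast markers counted above. Postn, a matricellular protein, was at 247 ± 31, 535 ± 42 and 1157 ± 51 CPM, and Comp, a cartilage and tendon protein, at 47.9 ± 6.1, 156 ± 4.8 and 241 ± 5.9 CPM. Those not called, named after their values were seen, were Sparc on 1 kPa (log2 fold change 0.09, edgeR adjusted p = 0.28) and Col12a1 on 20 kPa (0.09, edgeR adjusted p = 0.25).

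Collagen receptors and degrading enzymes differed in how uniformly they moved. Of 8 collagen receptors, 2 rose and 4 fell on 1 kPa and 4 rose and 2 fell on 20 kPa (medians -0.14 and 0.12). Ddr1, a receptor tyrosine kinase for collagen, stood at 227 ± 17, 140 ± 1.8 and 137 ± 5.3 CPM, and the integrin subunit Itga1 at 93.9 ± 6.7, 92.1 ± 0.98 and 134 ± 4.7 CPM. The subunits Itga2 (2.3 ± 0.11, 8.92 ± 1.5 and 6.97 ± 0.072 CPM) and Itga10 (7 ± 0.96, 15 ± 0.25 and 14.4 ± 1.3 CPM) rose on both gels. Of 10 genes of collagen breakdown and its inhibitors, 8 rose and 2 fell on 1 kPa (median 1.46), and 8 rose and 1 fell on 20 kPa (median 1.21). The collagenase Mmp13 stood at 0.504 ± 0.19, 240 ± 11 and 44.7 ± 4.3 CPM and the gelatinase Mmp2 at 415 ± 16, 1291 ± 18 and 1077 ± 55 CPM. Of the 3 inhibitors of the list, Timp1 rose and Timp3 fell on both gels, with Timp1 at 581 ± 30, 1417 ± 15 and 1128 ± 32 CPM and Timp3 at 1128 ± 90, 271 ± 6.2 and 579 ± 43 CPM. Timp2, named after its values were seen, stood at 1642 ± 120, 1153 ± 19 and 1548 ± 41 CPM, lower on 1 kPa (log2 fold change -0.51, edgeR adjusted p = 4.1e-08) and not called on 20 kPa (-0.08, edgeR adjusted p = 0.29).

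Of 25 regulators of fibrillar collagen transcripts, 8 rose and 4 fell on 1 kPa (median 0.08), and 8 rose and 5 fell on 20 kPa (median -0.02, 0.01 with total counts). The 12 and 13 called of 25 are near the shares of all tested genes, 45.0% and 41.8%. Tgfb1, the growth factor known for raising collagen expression, stood at 33.5 ± 4.3, 93.4 ± 2.3 and 75.1 ± 5.5 CPM on glass, 1 kPa and 20 kPa, whereas its receptor subunit Tgfbr2 was at 517 ± 38, 259 ± 7.9 and 270 ± 3.3 CPM. The transcription factors Cebpb (272 ± 39, 552 ± 6.0 and 381 ± 13 CPM) and Creb3l1 (28.8 ± 0.14, 57.1 ± 1.6 and 48.8 ± 1.5 CPM) were higher on both gels. Larp6, the stem-loop binding protein, chosen after its values were seen, stood at 6.16 ± 0.15, 14.9 ± 2.0 and 11.5 ± 1.6 CPM (edgeR adjusted p = 1.3e-08 on 1 kPa and 8.7e-06 on 20 kPa, against glass).

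**Figure D5:**
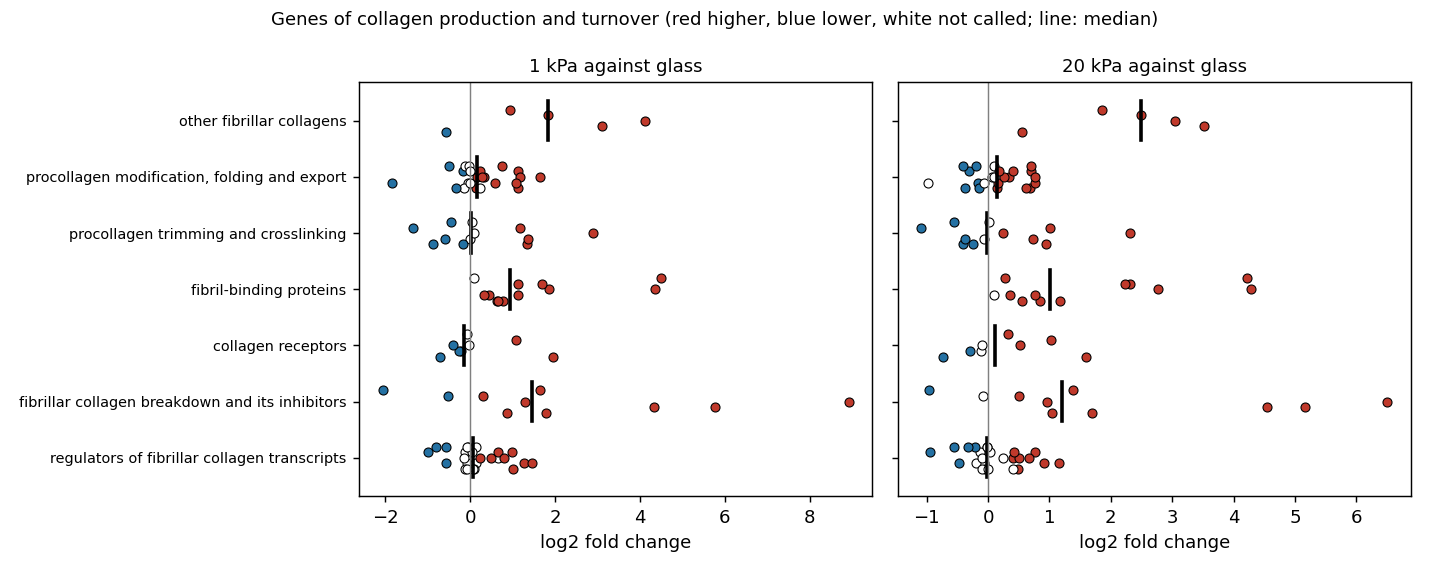
Log2 fold changes (horizontal axes) of the genes in 7 lists of collagen production and turnover on 1 kPa (left) and 20 kPa (right) against glass, 1 point per gene, red where higher, blue where lower and white where not called, with a line at each list's median. Fibril-binding proteins have 11 of 12 points called higher on both gels, while trimming and crosslinking genes lie on both sides of 0.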

How the data were processed

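Per the labels, polyadenylated RNA of 6 mouse libraries was fragmented and amplified. The values are raw counts per Ensembl gene as the authors deposited them, with no normalisation, and Trim Galore, cutadapt, STAR 2.7.10b, featureCounts and mm10 are named per the submitters' processing notes. The annotation, strand setting and use of molecular identifiers were not given in the sources used here. Intervals and floors cover counting error only. Symbols, positions and lengths came from GENCODE M21 (GRCm38), which held 91.3% of the 57010 identifiers, and promoters from RefSeq.

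Genes were kept with filterByExpr of edgeR 4.0.16 (16093 left), scaled with TMM, and all 6 libraries entered 1 quasi-likelihood fit (R 4.3.3), whose only term was the substrate. Adjusted p-values are Benjamini-Hochberg values over all tested genes, with a threshold of 0.05, and SE is the absolute log2 fold change over the square root of F. The pipeline was tested on counts simulated with the spread fitted here, which cannot show whether that spread is right. CPM errors are SDs of 2 libraries, and a permutation of 2 against 2 libraries cannot go below 0.333. Libraries of a group differed by more than counting noise (chi-square per degree of freedom 3.63 to 40.7, summed over tested genes). Such a sum can be raised by a single abundant gene, such as the identifier at 1.17% and 5.1% of counts in the glass libraries. Alternatives were other scalings, DESeq2 1.42.0, limma 3.58.1, other filters, fits of 2 groups, a replicate block and leaving out each library.

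Named are the 6 members, up to 4 genes per list with the smallest p over the 3 substrates, and the 3 genes nearest to each member in pattern with a mean of at least 5 CPM. The members and lists were chosen with earlier results of these data known.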

Additional observations from a re-analysis of the deposited data

How the results depend on the processing

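Directions and calls of Col1a1, Col3a1 and Col5a3 were the same in each of the 14 alternatives for every comparison, and those of Col1a2 against glass in all but 1. Without 1 library each, 3 to 6 of the 6 genes were called on 1 kPa against glass (3 without 1 kPa replicate 1), 4 to 5 on 20 kPa against glass, 2 to 4 between the gels and 4 to 6 over the 3 substrates. The log2 fold change of Col5a1 on 20 kPa against glass, not called, changed sign to 0.02 with total counts, 0.04 with total counts without the 6 genes, 0.01 with the stricter filter, 0.07 without glass replicate 1 and 0.03 without 20 kPa replicate 2 (leaving out 1 library each, -0.08 to 0.07), and the cause was not tested. Without 1 library each, the highest over the lowest substrate mean ranged from 1.07 to 1.11 for Col1a1 to Col1a2, 1.22 to 1.32 for Col5a1 to Col5a2, 5.59 to 5.86 for Col5a3 to Col5a1, 2.1 to 2.22 for Col3a1 to Col1a1 and 1.27 to 1.32 for Col5a1 to Col1a1. Between the gels, 3035 genes of all tested were called, 2022 with DESeq2 and 1680 to 3824 without 1 library each, and 47.4% of calls were higher on 20 kPa against 60.9% with total counts and 62.4% with total counts without the 6 genes. Same-numbered libraries did not deviate together (correlations -0.0347 to -0.0158). Whether the numbers pair the samples is not stated, and these values cannot decide it, since a shared source may leave little trace in 2 libraries per group. With the replicate block 5, 5 and 3 genes were called in the 3 comparisons, as without it, and 6 over the 3 substrates. Counting depth is lowest for Col5a3 on glass, with 850 and 644 counts.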
